A study of Mus musculus with 36 samples.

Results

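A set of 10 secreted growth factor genes whose products act on macrophages, other myeloid cells or stromal cells was followed in enteric glial cells (EGCs): *Csf1*, *Csf2*, *Csf3*, *Il34*, *Spp1*, *Pdgfa*, *Pdgfb*, *Hbegf*, *Areg* and *Ereg*. They were taken by gene name, and all 10 were among the 43472 genes of the count table. RNA was read from 36 libraries of EGCs in 9 groups of 4, left unstimulated or stimulated with H-CM, the conditioned medium of healthy colon, or with TME-CM, that of the tumor microenvironment, over 6, 12 or 24 h. TME-CM was medium in which cells of digested orthotopic MC38 tumors, a mouse colorectal cancer line grown in the colon wall, had been kept overnight, and H-CM came from digested healthy colon in the same way. Setting TME-CM against H-CM therefore asks what glia do in response to factors released from a tumor rather than from normal colon. All groups shared wild-type EGCs from C57BL/6J embryonic intestine, grown as neurospheres with EGF and FGF and then differentiated in serum. Such cultures are a mixture rather than a sorted population, and the labels do not say whether replicates came from separate cultures, so that the p-values measure the spread between these libraries.

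The 10 genes are described in 4 groups: colony-stimulating factors with IL-34, osteopontin, PDGF chains and ligands of the EGF receptor. CSF-1 and IL-34 both bind the receptor CSF1R, on which macrophages depend for survival and proliferation. GM-CSF, encoded by *Csf2*, directs granulocytes and macrophages, whereas G-CSF, encoded by *Csf3*, directs neutrophil production. Osteopontin, the product of *Spp1*, is a secreted adhesive protein that binds CD44 and several integrins. PDGF-A and PDGF-B chains form dimers that act on fibroblasts, pericytes and smooth muscle, and HB-EGF, amphiregulin and epiregulin are made as membrane proteins, cut loose by metalloproteinases and bound by the EGF receptor.

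Library totals ranged from 13518 to 7552509 counts. At 6 h, 2 libraries were shallow: unstimulated replicate 3 with 256453 counts and H-CM replicate 4 with 13518. A count of 0 in single libraries allows up to 110 CPM (counts per 1000000) at 6 h but at most 1.53 CPM at 12 h and 1.49 CPM at 24 h, taking 3 counts as the limit and counting error alone. One entry of the table, *Yam1*, took 37.8% to 48.6% of the counts in 7 libraries of 6 h (3 unstimulated, 3 H-CM and 1 TME-CM) and 11% to 20% in the other 5, and at that time it moved with the groups. Of 9 tested markers of enteric glia, 0 were called between EGCs given TME-CM and H-CM for 24 h (adjusted p under 0.05, edgeR; 2 at an unadjusted p under 0.05), and *Sox10*, a defining glial transcription factor, stood at 65.4 CPM in H-CM and 65.8 CPM in TME-CM EGCs. *Gfap*, the glial filament gene, was scarce, with 3.16 and 4.09 CPM. Levels are CPM on library sizes scaled with edgeR's TMM factors, given as mean ± SD with n = 4 libraries. A 3′ library gives about 1 tag per transcript, so the values were not scaled by length.

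Of the 10 genes, 5 were abundant and 5 were scarce. *Csf1*, *Spp1*, *Pdgfa* and *Hbegf* reached more than 100 CPM in at least 1 group, *Ereg* reached 82.5 CPM, and the others did not pass 10.8 CPM as a group mean. Exposure to TME-CM went with higher *Spp1*, *Pdgfa* and *Ereg* than H-CM at both 12 h and 24 h, by edgeR's quasi-likelihood test with an adjusted p under 0.05. *Csf3* was detected mainly in TME-CM EGCs, at low counts. *Hbegf* went the other way: it was lower than in unstimulated EGCs after either medium at 24 h and after TME-CM at 12 h. *Csf1*, the highest member at 24 h, did not pass the test in any comparison. In bulk RNA, fewer cells of a type and less RNA per cell cannot be told apart.

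**Figure D1:**
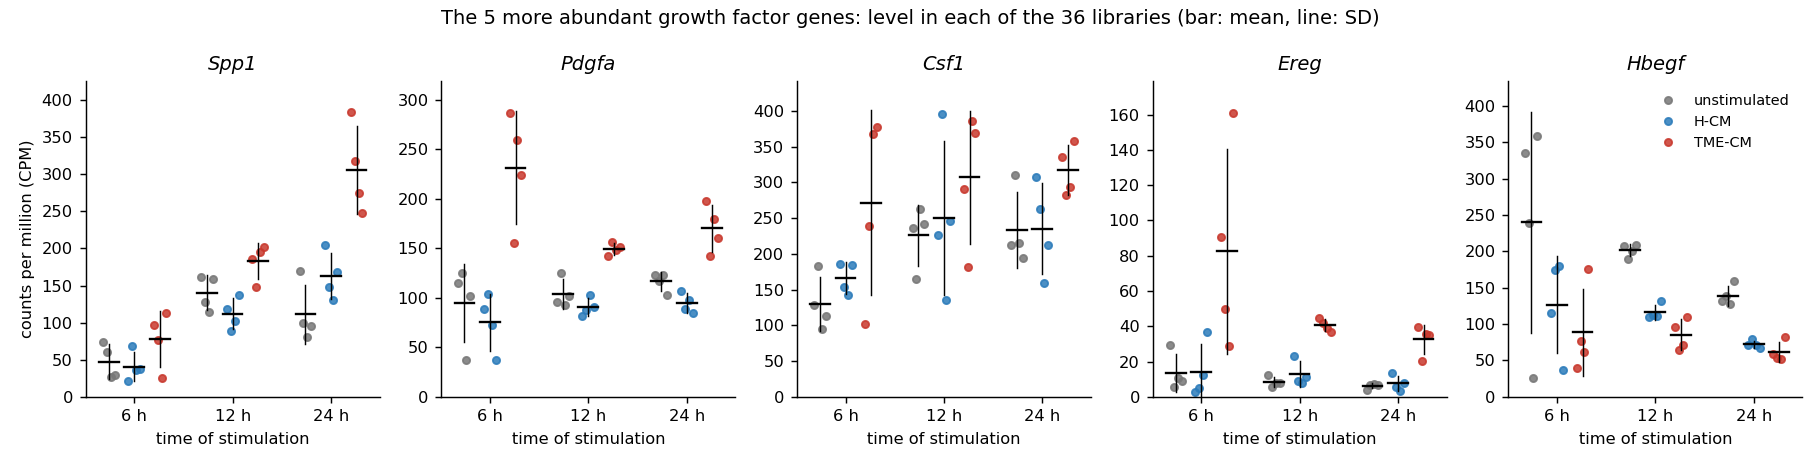
Level of *Spp1*, *Pdgfa*, *Csf1*, *Ereg* and *Hbegf* in CPM (y axis, from 0, a scale of its own for each gene) by hours of stimulation (x axis: 6, 12, 24); each point is 1 library, bars are means and lines the SD of 4 libraries, colored by stimulation. At 24 h all 4 TME-CM libraries lie above all H-CM libraries for *Spp1*, *Pdgfa* and *Ereg*, whereas *Hbegf* is highest in unstimulated EGCs and *Csf1* overlaps between groups.

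Windows of 250 bases before the annotated start were found in RefSeq's promoter table (mouse assembly GRCm38.p6, the build also called mm10) for 5 of the 10 genes, *Csf1*, *Csf2*, *Spp1*, *Pdgfa* and *Areg*. Those of the 3 abundant genes among them are printed here 5′ to 3′ on the strand of the gene. *Spp1* and *Pdgfa* were each called higher with TME-CM than with H-CM at 12 h and 24 h, and *Csf1* did not pass the test. For *Spp1* (chr5:104434861-104435110, plus strand) and *Pdgfa* (chr5:138994945-138995194, minus strand, inside the gene as GENCODE draws it) the table lists more than 1 start and the one farthest upstream is shown. *Csf1* lies at chr3:107760470-107760719 on the minus strand. Capitals mark a match to the NF-kB consensus.
Csf1: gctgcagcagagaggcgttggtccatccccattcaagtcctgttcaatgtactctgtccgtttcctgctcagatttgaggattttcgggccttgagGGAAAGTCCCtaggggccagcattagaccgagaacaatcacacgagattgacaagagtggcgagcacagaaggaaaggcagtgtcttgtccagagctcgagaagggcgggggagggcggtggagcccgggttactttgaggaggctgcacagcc
Spp1: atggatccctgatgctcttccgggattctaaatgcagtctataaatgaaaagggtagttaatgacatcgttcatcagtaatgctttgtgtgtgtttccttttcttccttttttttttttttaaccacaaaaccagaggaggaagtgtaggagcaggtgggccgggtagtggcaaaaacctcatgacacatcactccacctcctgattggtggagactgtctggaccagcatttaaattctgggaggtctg
Pdgfa: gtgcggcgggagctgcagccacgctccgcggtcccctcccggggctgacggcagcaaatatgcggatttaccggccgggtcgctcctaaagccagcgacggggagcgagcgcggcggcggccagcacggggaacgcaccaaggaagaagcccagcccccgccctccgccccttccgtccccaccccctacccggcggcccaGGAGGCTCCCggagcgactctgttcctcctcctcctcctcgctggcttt
*Csf1* held 1 match to the NF-kB consensus, 154 bases before its start, and *Pdgfa* 1, 49 bases before its start, while the windows of *Spp1*, *Csf2* and *Areg* held none; 7.25% of all 32851 promoter windows hold one. None of the 5 genes matched the AP-1 heptamer TGANTCA, which 6.75% of windows hold, or the CArG box of serum response factor, which 1.47% hold. Both strands were searched and no motif overlapped another. A match describes letters, and its absence says only that these letters were not in this window.

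*Spp1*, on chromosome 5 of GRCm38 at chr5:104435118-104441050 on the plus strand, reached its highest level in TME-CM EGCs at 24 h. Its levels there were 383, 318, 275 and 248 CPM in replicates 1 to 4, against 204, 148, 131 and 169 in H-CM EGCs and 170.0, 99.0, 80.5 and 95.3 in unstimulated EGCs. Every TME-CM library lay above every H-CM and every unstimulated library, while the H-CM and unstimulated libraries overlapped. The means were 306 ± 59.1, 163 ± 31.5 and 111 ± 40.0 CPM, so that TME-CM EGCs held 1.88 times the level of H-CM EGCs and 2.75 times that of unstimulated EGCs. This gave a log2 fold change of 0.91 over H-CM (SE 0.21, adjusted p = 0.0125, edgeR) and 1.46 over unstimulated EGCs (SE 0.21, adjusted p = 0.000101, edgeR). The call over H-CM was lost without H-CM replicate 2 (adjusted p = 0.0507) or H-CM replicate 3 (0.0527) and with all 36 libraries in one edgeR model (0.394), whereas the call over unstimulated EGCs held in all 8 fits that left out 1 library. H-CM itself gave a log2 fold change of 0.56 over unstimulated EGCs (SE 0.21, adjusted p = 0.272, edgeR), which passed the threshold when unstimulated replicate 1, the highest of its group, was left out (0.83, adjusted p = 0.00511) or genes with low counts were not filtered out (adjusted p = 0.00949, edgeR).

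At 12 h the difference from H-CM was smaller. *Spp1* was at 185, 148, 195 and 202.5 CPM in TME-CM EGCs and 118, 89.2, 102 and 138 in H-CM EGCs, again without overlap. Unstimulated EGCs, at 161, 128, 114 and 159 CPM, overlapped both. Against H-CM the log2 fold change of TME-CM was 0.71 (SE 0.18, adjusted p = 0.0491, edgeR), and against unstimulated EGCs it was 0.37 (SE 0.18, adjusted p = 0.433). The 12 h call over H-CM stood at the edge of the threshold: it was kept without TME-CM replicate 2 and lost in the other 7 fits that left out 1 of the 8 libraries, the largest adjusted p being 0.192, when H-CM replicate 2 was left out. From 12 h to 24 h the mean of TME-CM EGCs went from 183 to 306 CPM, with all libraries of 24 h above those of 12 h, and the log2 difference of 0.75 (SE 0.20) had an adjusted p of 0.0707 (edgeR over 24 libraries). *Spp1* shares 309 exon bases with the annotated gene Gm42793, which has no row of its own in the table.

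*Pdgfa*, on the minus strand of chromosome 5 at chr5:138976014-138997370, rose with TME-CM at both later times. At 24 h its levels were 198, 142, 179.6 and 161 CPM after TME-CM, 107, 89.1, 98.0 and 84.2 after H-CM and 123, 117, 123 and 103 in unstimulated EGCs. TME-CM EGCs lay above both other groups in every library, and their mean of 170 ± 24.1 CPM was 1.80 times that of H-CM EGCs (94.7 ± 10.2) and 1.46 times that of unstimulated EGCs (117 ± 9.34). Its log2 fold change over H-CM was 0.84 (SE 0.13, adjusted p = 0.000242, edgeR) and was called in all 8 fits without 1 library. Over unstimulated EGCs it was 0.54 (SE 0.13, adjusted p = 0.00616, edgeR), also called in all 8. With all 36 libraries in one model the adjusted p values were 0.106 and 0.512 (edgeR). Of 7 tested fibroblast markers, 4 were also higher in TME-CM EGCs than with H-CM at 24 h, and their part in the *Pdgfa*, *Spp1* and *Ereg* values was not tested.

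At 12 h *Pdgfa* was at 142, 156, 148 and 151 CPM in TME-CM EGCs, a narrow band, and at 81.2, 87.6, 103 and 90.7 in H-CM EGCs. The unstimulated libraries held 96.2, 125, 92.4 and 102 CPM, below every TME-CM library. Against H-CM it was higher by 0.72 on the log2 scale (SE 0.17, adjusted p = 0.0262, edgeR). This call was kept without H-CM replicate 3 and lost in the other 7 fits that left out 1 library, with an adjusted p of at most 0.0934 (without H-CM replicate 4), and over unstimulated EGCs the value was 0.52 (SE 0.17, adjusted p = 0.108, edgeR). Of the *Pdgfa* and *Pdgfb* counts, *Pdgfa* made up 95.9% to 98.6% as a group mean at 24 h. The related chain gene *Pdgfc*, named after its values were seen, stood at 6.29 to 9.88 CPM as a group mean at that time. *Pdgfb*, the partner chain, held 2.46 ± 0.899 CPM in TME-CM, 3.19 ± 2.50 in H-CM and 4.97 ± 2.17 in unstimulated EGCs at 24 h, and no comparison of it passed the test. Exons of *Pdgfa* overlap those of 6330403L08Rik over 813 bases; that gene was counted 1497 times over the 36 libraries and *Pdgfa* 19091 times, and whether the counting used strand is not given in the sources used here.

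*Csf1*, at chr3:107741048-107760469 on the minus strand, was expressed in every library, and its groups overlapped at each time. At 24 h its levels were 335.5, 282, 294 and 358 CPM after TME-CM, 308, 263, 159 and 212 after H-CM and 212, 311, 216 and 194 in unstimulated EGCs. The means of 317 ± 35.5, 235.5 ± 64.2 and 233 ± 52.9 CPM gave a log2 fold change of 0.43 over H-CM (SE 0.18, adjusted p = 0.219, edgeR) and 0.44 over unstimulated EGCs (SE 0.18, adjusted p = 0.151). The latter adjusted p fell under the threshold without unstimulated replicate 2 (0.61, adjusted p = 0.0297) and, with all libraries kept, when genes with low counts were not filtered out (0.44, adjusted p = 0.0327, edgeR). At 12 h the log2 fold change over H-CM was 0.30 (SE 0.27, adjusted p = 0.768, edgeR). *Csf1* supplied nearly all transcripts for CSF1R ligands: its share of the *Csf1* and *Il34* counts was 98.7% to 99.6% as a group mean at 12 h and 24 h.

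*Csf3*, at chr11:98701263-98703629 on the plus strand, was almost silent without TME-CM. At 12 h it had 76, 12, 30 and 52 counts in the TME-CM libraries, 5, 0, 0 and 0 in the H-CM libraries and 0, 0, 6 and 0 in the unstimulated libraries. Every TME-CM library thus lay above all others of its time, at 9.94 ± 5.29 CPM against 0.336 ± 0.672 and 0.397 ± 0.794. In the fit *Csf3* had a log2 fold change of 5.05 over H-CM (SE 1.19, adjusted p = 0.0282, edgeR) and 4.48 over unstimulated EGCs (SE 1.18, adjusted p = 0.0289), values that rest on a handful of counts in the lower groups. *Csf3* passed the filter on low counts at 12 h through its 4 TME-CM libraries alone, so a call had to favor that group. Neither call held under DESeq2 (adjusted p = 0.18 and 0.197) or with all 36 libraries in one model (0.108 and 0.0883, edgeR). The call over H-CM was lost without TME-CM replicate 1 or 4 or H-CM replicate 2 or 4 (adjusted p of at most 0.126), and that over unstimulated EGCs without TME-CM replicate 1 or 4 or unstimulated replicate 1, 2 or 4 (at most 0.124).

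At 6 h *Csf3* had 43, 2, 2 and 45 counts in TME-CM EGCs and 0 in all 8 other libraries. With counts pooled over each group and 3 counts taken as the limit, TME-CM EGCs were at least 8.76-fold higher than H-CM and 17.7-fold higher than unstimulated EGCs. These pooled values rest on TME-CM replicates 1 and 4, since replicates 2 and 3 held fewer counts than that limit. No test was made because the gene did not pass the filter on low counts at that time. At 24 h the counts were 21, 0, 7 and 21 in TME-CM, 0, 0, 4 and 0 in H-CM and 0, 1, 1 and 7 in unstimulated EGCs, which overlap, and the gene was not tested. *Csf3* in TME-CM EGCs went from 9.94 CPM at 12 h to 1.87 at 24 h, a log2 difference of −2.32 (SE 0.97, adjusted p = 0.487, edgeR), and all libraries of 24 h lay below those of 12 h. At 24 h only 2 libraries, both TME-CM, were over the filter cutoff, where 4 are needed. The TME-CM libraries of 12 h thus brought *Csf3* into this fit, so a fall from 12 h was favored in advance.

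*Csf2* and *Il34* were scarce. *Csf2* (chr11:54247271-54249667, minus strand) had 43 counts in all 36 libraries and was never tested. Of these, 14 fell in TME-CM replicate 4 of 6 h and 14 in TME-CM replicate 4 of 12 h, and all 12 unstimulated libraries were at 0. *Il34*, on the minus strand of chromosome 8, had 286 counts over all libraries, and its highest value was 44 counts in TME-CM replicate 4 of 6 h. Its levels at 24 h were 2.30 ± 1.68 CPM in TME-CM, 1.41 ± 0.663 in H-CM and 1.57 ± 0.725 in unstimulated EGCs. Against H-CM this gave a log2 fold change of 0.48 (SE 0.64, adjusted p = 0.803, edgeR).

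**Figure D2:**
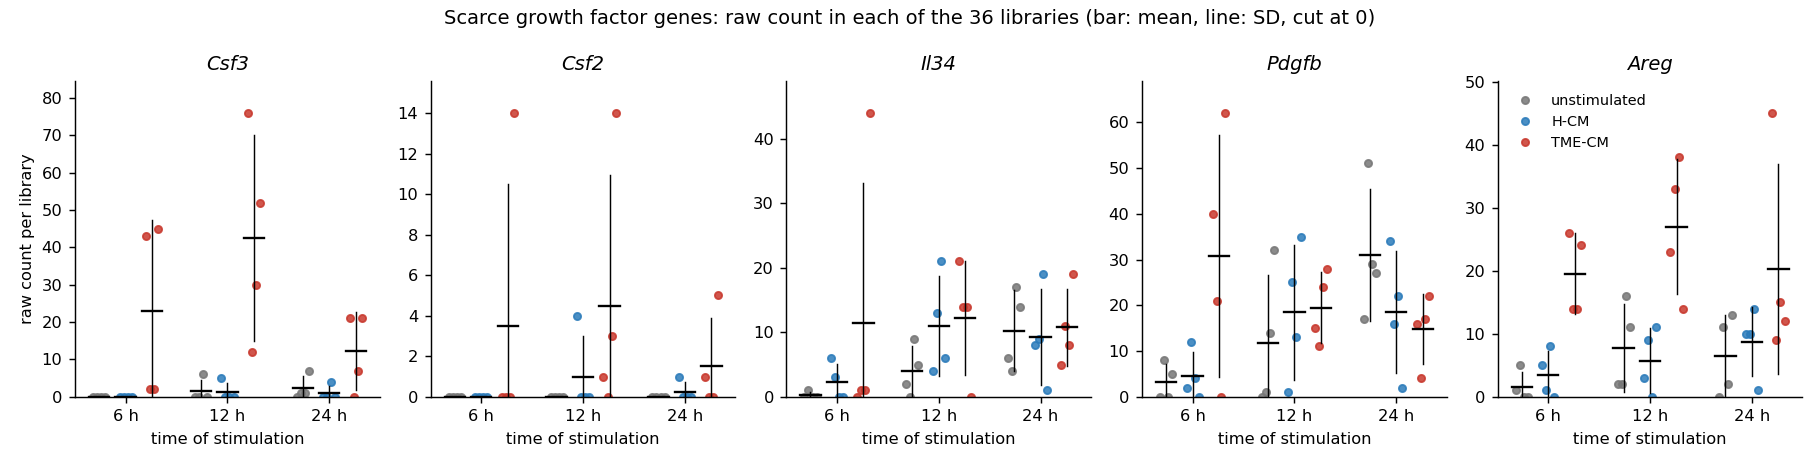
Raw counts (y axis, from 0) of *Csf3*, *Csf2*, *Il34*, *Pdgfb* and *Areg* in each library by hours of stimulation (x axis: 6, 12, 24); points are libraries, bars means and lines the SD of 4 libraries, cut at 0. *Csf3* counts are 12 to 76 in TME-CM libraries of 12 h and at most 6 in the other libraries of that time, and *Csf2* exceeds 5 counts in only 2 libraries, both TME-CM.

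*Ereg*, the gene of epiregulin, showed the largest rise among the abundant members. It lies at chr5:91074622-91093646 on the plus strand, near *Areg* (chr5:91139599-91148432, plus strand), and shares 141 exon bases with Gm19610, which has no row in the table. At 24 h its levels were 39.4, 20.3, 35.7 and 34.9 CPM after TME-CM, 13.6, 5.84, 3.28 and 7.92 after H-CM and 4.01, 6.89, 7.47 and 6.67 in unstimulated EGCs. The TME-CM libraries lay above all others, and the other groups overlapped. TME-CM EGCs held 32.6 ± 8.39 CPM, 4.26 times the H-CM level and 5.20 times the unstimulated level. In the fit this was a log2 fold change of 2.15 over H-CM (SE 0.33, adjusted p = 0.000322, edgeR) and 2.36 over unstimulated EGCs (SE 0.33, adjusted p = 3.44e-05, edgeR). Both calls held in all 8 fits without 1 library and in all 6 alternatives, with an adjusted p of at most 0.0349 and 0.00287 (edgeR, all 36 libraries in one model).

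At 12 h *Ereg* was at 44.9, 42.0, 39.2 and 36.8 CPM in TME-CM EGCs and 23.4, 8.81, 7.76 and 11.3 in H-CM EGCs, with 12.2, 5.33, 7.94 and 7.67 in unstimulated EGCs. The TME-CM libraries again stood apart, and H-CM replicate 1 was the highest of the rest. The log2 fold change was 1.69 over H-CM (SE 0.33, adjusted p = 0.00667, edgeR) and 2.31 over unstimulated EGCs (SE 0.35, adjusted p = 0.000193). The former was called in all 8 fits without 1 library but not with all 36 libraries in one model (adjusted p = 0.154, edgeR). *Areg*, which encodes amphiregulin, had 23, 33, 38 and 14 counts in TME-CM and 3, 9, 0 and 11 in H-CM libraries of 12 h. These did not overlap, yet the log2 fold change of 2.79 (SE 0.84) had an adjusted p of 0.12 (edgeR). It passed only under DESeq2 (2.83, adjusted p = 0.0111). *Areg* would not have passed the filter on low counts at 12 h without its TME-CM libraries, so these values favored that group in advance. At 24 h *Areg* was at 3.49 ± 2.11 CPM with TME-CM against 1.41 ± 0.642 with H-CM (log2 fold change 1.20, SE 0.67, adjusted p = 0.405, edgeR).

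*Hbegf*, the gene of heparin-binding EGF-like growth factor, was lower after either medium at 24 h. At 24 h its levels were 132, 138, 128 and 159 CPM in unstimulated EGCs, 71.6, 78.9, 70.9 and 67.3 in H-CM EGCs and 58.9, 53.3, 52.1 and 82.1 in TME-CM EGCs. All unstimulated libraries lay above all others, while H-CM and TME-CM overlapped. The log2 fold change over unstimulated EGCs was −0.95 for H-CM (SE 0.14, adjusted p = 0.000646, edgeR) and −1.18 for TME-CM (SE 0.14, adjusted p = 4.84e-06, edgeR), each called in all 8 fits without 1 library but not with all 36 libraries in one model (adjusted p = 1 and 0.0759). TME-CM against H-CM gave −0.23 (SE 0.15, adjusted p = 0.49, edgeR).

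At 12 h *Hbegf* held 208, 190.1, 201 and 209 CPM in unstimulated EGCs, 109.2, 112, 111 and 132 in H-CM EGCs and 96.2, 64.0, 71.6 and 110.3 in TME-CM EGCs. The unstimulated libraries differed little among themselves, at 202 ± 8.73 CPM. TME-CM fell by 1.25 on the log2 scale from them (SE 0.18, adjusted p = 0.000157, edgeR), a call kept in all 8 fits without 1 library and all 6 alternatives. For H-CM the difference was −0.81 (SE 0.18, adjusted p = 0.0549, edgeR), without overlap between the groups, and it passed under DESeq2 (adjusted p = 0.00155) and without the filter on low counts (0.0331). Smooth muscle markers were also lower in TME-CM than in unstimulated EGCs, 6 of 8 at 12 h and 8 of 8 at 24 h (edgeR). For H-CM against unstimulated EGCs 0 of 8 were called at 12 h (5 at an unadjusted p under 0.05), and 6 of 8 were lower at 24 h (edgeR). Their summed level at 24 h ranged from 7070 to 8120 CPM in unstimulated, 3250 to 4030 in H-CM and 1720 to 2440 in TME-CM EGCs. In unstimulated EGCs of 12 h this sum was 4750 to 5160 CPM. Between 12 h and 24 h, 0 of the 8 markers were called in unstimulated EGCs (edgeR, 5 at an unadjusted p under 0.05). *Hbegf* was not called there either (log2 difference −0.54, adjusted p = 0.56, edgeR). *Acta2*, named after its values were seen, made up most of the sum, at 5720 ± 292 CPM in unstimulated EGCs at 24 h. The part of these markers in the *Hbegf* values was not tested.

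The make-up of the EGFR ligand transcripts is described by shares. Of the summed *Hbegf*, *Ereg* and *Areg* counts at 24 h, *Ereg* took 33.3% ± 6.42 in TME-CM, 9.28% ± 4.89 in H-CM and 4.28% ± 1.09 in unstimulated EGCs. *Hbegf* took 63.1% ± 6.94, 89.0% ± 4.97 and 95.1% ± 1.35, and *Areg* the remaining 3.65% ± 2.08, 1.71% ± 0.724 and 0.592% ± 0.578. The 12 h shares of *Ereg* were 30.9% ± 4.68, 9.75% ± 5.22 and 3.87% ± 1.18 in the same order. These shares describe counts per library and were not tested. The sums behind them were 153 to 1594 counts per library at 12 h and 24 h.

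**Figure D3:**
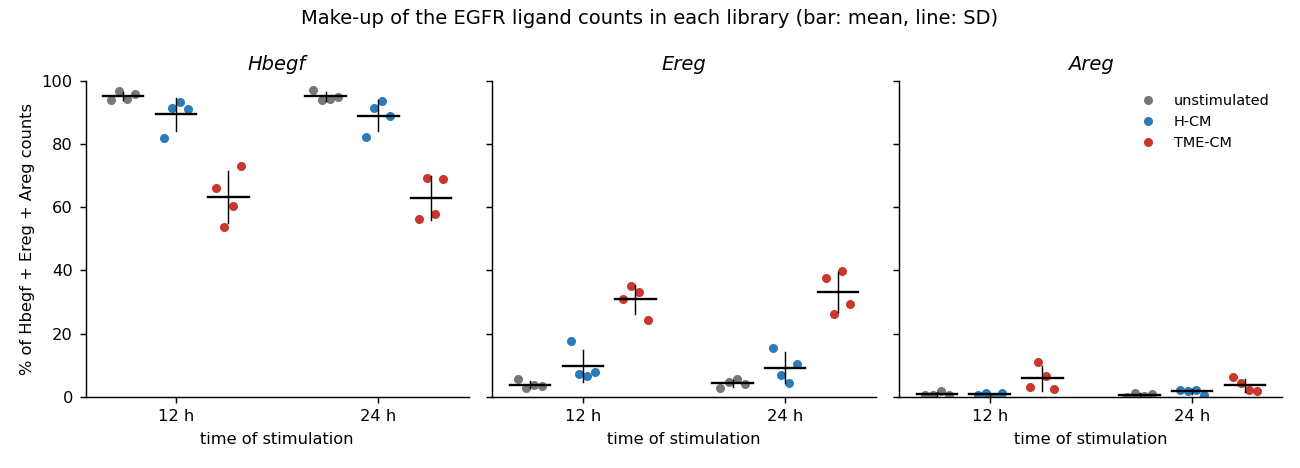
Share of *Hbegf*, *Ereg* and *Areg* in the sum of their counts (y axis, percent) in each library at 12 h and 24 h (x axis); points are libraries, bars means and lines the SD of 4 libraries. *Hbegf* makes up 53.7% to 73.2% in TME-CM libraries and at least 81.9% in all others.

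At 12 h 9 members were tested, of which *Csf3*, *Il34* and *Areg* would not have passed the filter without their TME-CM libraries and are left out of the TME-CM counts of that time. Of the other 6, 3 rose with TME-CM over H-CM (*Spp1*, *Pdgfa*, *Ereg*) and 0 were lower, where 1.22% of all 12156 tested genes were higher and 0.675% lower. Of the 8 fits that left out 1 library, *Ereg* was called in 8, *Spp1* in 1 and *Pdgfa* in 1. No such fit called all 3 of these genes. With *Csf3* the called members were 4, and this count fell to 1 or 2 without H-CM replicate 1, 2 or 4 or TME-CM replicate 1, 3 or 4. At 24 h, 3 of 8 were higher (*Spp1*, *Pdgfa*, *Ereg*) and 0 lower, against 2.75% and 2.65% of 12713 genes. All TME-CM libraries lay above all H-CM libraries for 3 of the 6 genes at 12 h and 4 of the 8 at 24 h, compared with 4.01% and 5.47% of genes. The median log2 fold change of the 8 tested genes was 0.66 at 24 h, beside 0.0049 over all genes tested. Since the genes were picked with earlier results of these data known, the shares describe them and support nothing further.

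Over unstimulated EGCs, TME-CM gave 1 higher (*Ereg*) and 1 lower gene (*Hbegf*) of the same 6 at 12 h, *Csf3* being called as well but left out as above, where 2.67% and 1.74% of all tested genes were higher and lower. No overlap with the unstimulated libraries was seen for 2 of the 6 on the higher side (*Pdgfa*, *Ereg*) and 1 on the lower side (*Hbegf*), against 5.82% and 4.77% of all genes. At 24 h, 3 were higher (*Spp1*, *Pdgfa*, *Ereg*) and 1 lower (*Hbegf*) of 8, against 4.82% and 4.7%, and 4 genes lay wholly above (*Spp1*, *Pdgfa*, *Areg*, *Ereg*) and 1 wholly below (*Hbegf*), against 6.65% and 6.43%. H-CM over unstimulated EGCs gave 0 higher and 1 lower gene of 8 at 24 h, *Hbegf*, against 1.07% and 0.96% of all tested genes, and 4.07% lay wholly below as *Hbegf* did. At 12 h H-CM gave 0 of 9 (edgeR; 1 at an unadjusted p under 0.05, *Hbegf*, and 1 by DESeq2), where 0.354% of all genes were higher and 0.0494% lower. Of all genes, 1.75% lay wholly below the unstimulated libraries as *Hbegf* did. An unadjusted p under 0.05 was found there for 688 of all 12156 tested genes (edgeR). TME-CM comparisons with H-CM and with unstimulated EGCs share the TME-CM libraries and are not independent of each other.

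**Figure D4:**
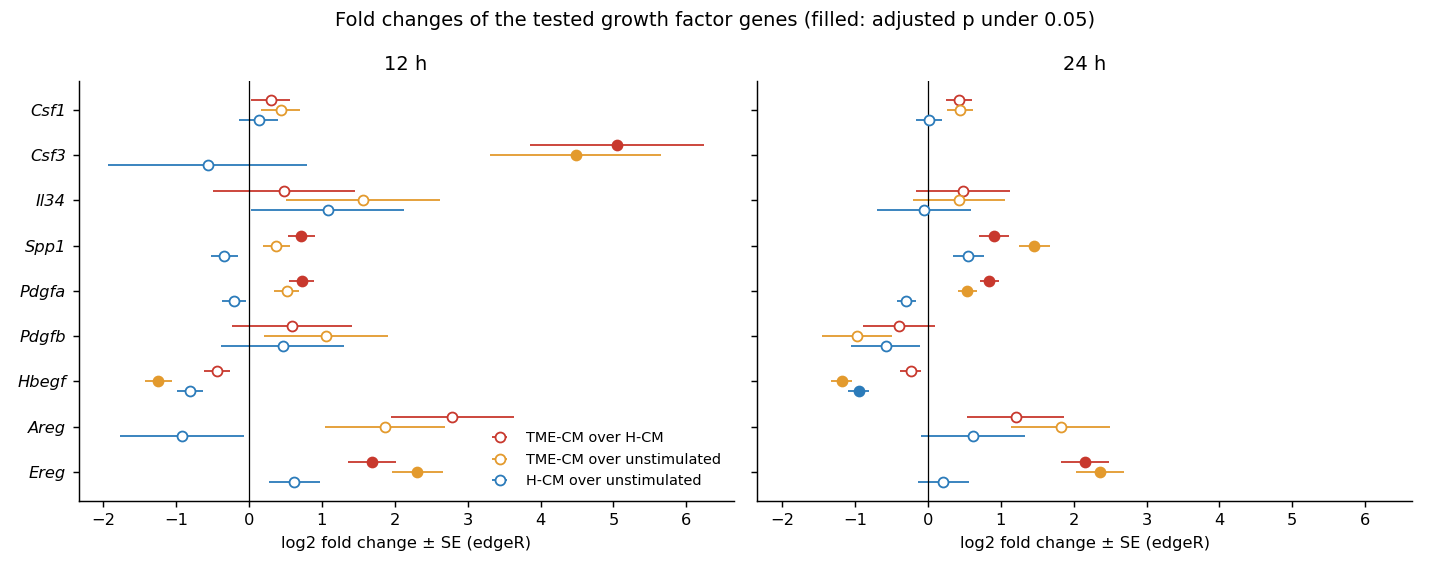
Log2 fold changes with SE (x axis, edgeR) of the tested growth factor genes (y axis) at 12 h (left, 9 genes) and 24 h (right, 8 genes), for TME-CM over H-CM, TME-CM over unstimulated and H-CM over unstimulated EGCs; filled points have an adjusted p under 0.05. *Spp1*, *Pdgfa* and *Ereg* are filled for TME-CM over H-CM at both times, and *Hbegf* is filled to the left of 0 for TME-CM over unstimulated EGCs at both.

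At 6 h only *Csf1*, *Spp1*, *Pdgfa*, *Hbegf* and *Ereg* passed the filter on low counts. Of these 5, 0 were called for TME-CM over H-CM (edgeR; 2 at an unadjusted p under 0.05 and 1 by DESeq2), where 0.0972% of all 9256 tested genes were called. For TME-CM over unstimulated EGCs 0 were called (4 at an unadjusted p under 0.05, 0 by DESeq2), against 0.454% of all genes. For H-CM over unstimulated EGCs there were 0 by any of these, against 0%. Among all 9256 tested genes, 562, 573 and 58 had an unadjusted p under 0.05 in these comparisons, in the same order (edgeR). *Pdgfa* was at 287, 156, 259.7 and 224 CPM in TME-CM EGCs, above every H-CM library (89.0, 104, 72.2 and 36.8) and every unstimulated library (114.5, 125, 36.8 and 102). Its log2 fold change over H-CM was 1.45 (SE 0.42, adjusted p = 0.368, edgeR), and 3.47% of all genes had every TME-CM library above every H-CM library and 2.3% above every unstimulated one. *Ereg* was at 90.6, 49.7, 28.8 and 161 CPM in TME-CM EGCs and 2.92, 4.75, 12.2 and 36.8 in H-CM EGCs, where the last is a single count in the library of 13518 counts. Its log2 fold change was 3.39 (SE 0.86, adjusted p = 0.187, edgeR), and DESeq2 called it (3.27, adjusted p = 0.0333).

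With all 36 libraries in one edgeR model, *Pdgfa* (adjusted p = 0.000698) and *Ereg* (0.000893) were called for TME-CM over H-CM at 6 h. In that model *Csf1*, *Pdgfa*, *Ereg* and *Hbegf* were called for TME-CM over unstimulated EGCs, the last with a log2 fold change of −1.49, together with 1 further member that its wider filter kept. Without the 2 shallow libraries the edgeR counts were again 0. The libraries low in *Yam1* were 3 of 4 in TME-CM and 1 of 4 in each other group, and their part in the 6 h values was not tested.

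Over time, 0 of 9 tested members were called between 24 h and 12 h in TME-CM, H-CM or unstimulated EGCs (edgeR over 24 libraries), where 0.626%, 0.00763% and 0.0153% of all 13105 genes were called. At an unadjusted p under 0.05 there were 3, 3 and 1 members, beside 1034, 817 and 694 of all 13105 genes (edgeR). DESeq2 called 1, 1 and 0 members. In TME-CM EGCs *Spp1* lay wholly above its 12 h libraries, as did 3.22% of all genes. *Csf3* lay wholly below them there, as did 2.34%, and was among the members with an unadjusted p under 0.05 (edgeR). It entered the fit through its TME-CM libraries of 12 h, so that a fall was favored in advance. *Hbegf* lay wholly below its 12 h libraries in unstimulated and in H-CM EGCs, as did 1.61% and 1.92%, with log2 differences of −0.54 (SE 0.16, adjusted p = 0.557, edgeR) and −0.69 (SE 0.16, adjusted p = 0.253). The change of the TME-CM effect over H-CM from 12 h to 24 h was 0.20 for *Spp1* (SE 0.28), 0.14 for *Pdgfa* (SE 0.20) and 0.46 for *Ereg* (SE 0.48), each with an adjusted p of 1 (edgeR), and 0 of 9 members had an unadjusted p under 0.05. From 6 h to 24 h, it was −0.58 for *Pdgfa* (SE 0.34, adjusted p = 0.692, edgeR over 16 libraries) and −1.38 for *Ereg* (SE 0.87, adjusted p = 0.712), again with 0 of 9 at an unadjusted p under 0.05. DESeq2 called 0 in either. Of all genes, 0% were called for either change.

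Ordered by mean, the 9 groups of *Spp1* ran from TME-CM at 24 h (306 CPM) through TME-CM at 12 h (183) down to unstimulated and H-CM at 6 h (47.2 and 40.7), and only the first stood clear of the group next to it. For *Pdgfa* the 3 TME-CM groups came first, at 232 CPM at 6 h, 170 at 24 h and 149 at 12 h, and overlapped each other, and the lowest of them did not overlap the next group, unstimulated at 24 h with 117 CPM. The 3 TME-CM groups also led for *Csf1* (317, 307 and 272 CPM at 24 h, 12 h and 6 h), where every neighbor overlapped, and for *Csf3*.

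The receptors and partners of these ligands were taken from lists by function. Of 7 receptors and binding partners of the colony-stimulating factors and IL-34, 6 were tested, and 1 rose and 0 fell with TME-CM over H-CM at 24 h (edgeR). This was *Sdc1*, the gene of syndecan-1, a cell surface proteoglycan that binds IL-34, at 106 ± 10.1 against 45.8 ± 6.72 CPM (log2 fold change 1.20, SE 0.15, adjusted p = 1.98e-05). At 12 h its log2 fold change was 1.29 (SE 0.23, adjusted p = 0.00251, edgeR). *Csf1r* itself, named after its values were seen, was at 4.94 ± 1.5 and 5.84 ± 3.67 CPM at 24 h, and *Csf3r*, the receptor of G-CSF, had 0 counts in all libraries.

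Among 9 osteopontin receptor genes, 0 were higher and 1 lower at 24 h: *Itga8*, the integrin α8 subunit, at 14.4 ± 2.97 CPM with TME-CM against 31.0 ± 6.10 with H-CM (log2 fold change −1.13, SE 0.22, adjusted p = 0.00243, edgeR). *Cd44*, named after its values were seen, was abundant in both, at 335 ± 34.4 and 290 ± 41.3 CPM. The 2 PDGF receptors moved apart. *Pdgfra*, which PDGF-A dimers activate, was at 92.2 ± 15.6 CPM with TME-CM against 48.2 ± 10.9 with H-CM (log2 fold change 0.93, SE 0.18, adjusted p = 0.00193, edgeR). *Pdgfrb* was at 51.0 ± 7.75 and 72.7 ± 4.92 CPM (log2 fold change −0.51, SE 0.14, adjusted p = 0.0354). The other 3 of 5 PDGF family genes did not pass.

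Of 9 other EGF family ligands and receptors 5 were tested at 24 h and 0 were called (edgeR; 2 at an unadjusted p under 0.05). *Egfr*, named after its values were seen, held 82.9 ± 14.2 CPM with TME-CM against 62.3 ± 7.36 with H-CM. In the list of 7 ectodomain shedding genes 1 was lower and 0 higher: *Timp3*, whose product inhibits the sheddase ADAM17, at 240 ± 38.0 against 410 ± 35.0 CPM (log2 fold change −0.77, SE 0.13, adjusted p = 0.000438, edgeR). *Timp3* was also lower at 12 h (−0.96, SE 0.17, adjusted p = 0.0028). Of 13 feedback genes of the ERK pathway, which EGFR and PDGF receptors activate, 1 was higher and 0 lower at 24 h: *Errfi1*, an inhibitor of EGFR, at 16.8 ± 5.99 against 6.81 ± 2.88 CPM (log2 fold change 1.33, SE 0.32, adjusted p = 0.0121). At 12 h *Sdc1* and *Timp3* were the only genes called in these 6 lists for TME-CM over H-CM, and at 6 h 0 were called, with 3 osteopontin receptor genes and 2 EGF family genes at an unadjusted p under 0.05 (edgeR). The median log2 fold changes of the lists at 24 h lay between −0.51 (PDGF family) and 0.24 (CSF receptors).

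**Figure D5:**
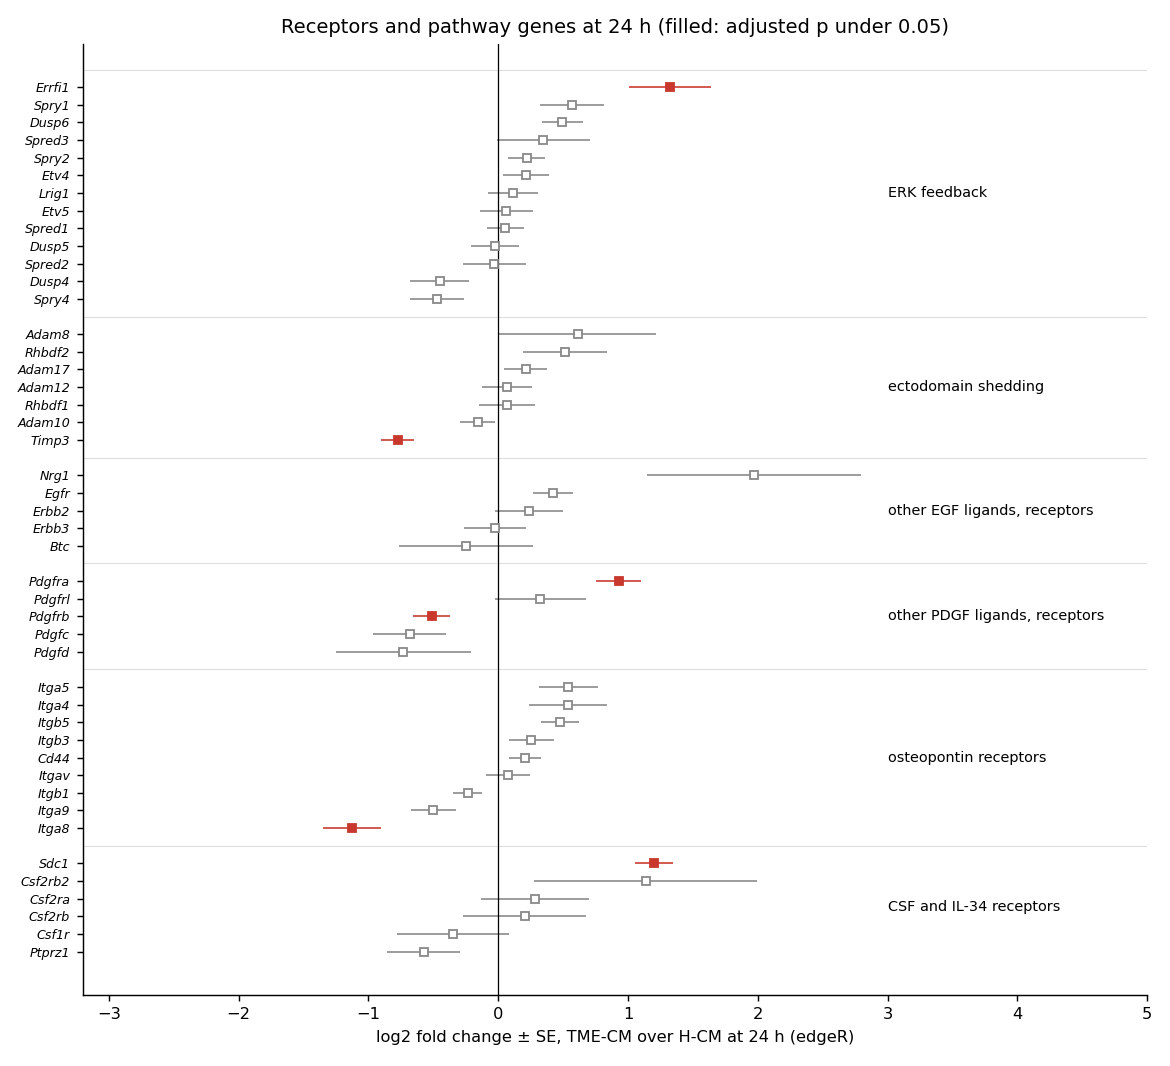
Log2 fold change with SE of TME-CM over H-CM at 24 h (x axis, edgeR) for the tested receptors, sheddases and feedback genes (y axis, grouped by list); filled points have an adjusted p under 0.05. *Sdc1*, *Pdgfra* and *Errfi1* are filled to the right of 0 and *Itga8*, *Pdgfrb* and *Timp3* to the left.

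Cells other than glia were checked through marker lists, and the genes named from them here were picked after their values were seen. Of 11 tested macrophage markers 0 were called for TME-CM against H-CM at either later time (edgeR; 0 at an unadjusted p under 0.05 at either time). Their summed level at 24 h was 61.8 to 244 CPM in unstimulated, 77.2 to 361 in H-CM and 75.3 to 387 in TME-CM EGCs, most of it *Lyz2*. The macrophage gene *Adgre1* was not analysed here. Of 7 tested fibroblast markers 4 (*Col3a1*, *Dcn*, *Lum*, *Pdgfra*) rose with TME-CM over H-CM at 24 h, as *Spp1*, *Pdgfa* and *Ereg* did, and 0 fell (edgeR). At 12 h 1 was higher and 0 lower over H-CM (edgeR). Over unstimulated EGCs 2 were higher and 0 lower at 12 h, and 2 were higher and 1 lower at 24 h (edgeR). The summed level of that list at 24 h was 6350 to 8040 CPM in TME-CM, 5050 to 5720 in H-CM and 6100 to 7710 in unstimulated EGCs. Smooth muscle markers were lower for 5 of 8 over H-CM at 24 h and for 3 of 8 at 12 h. Of 2 tested neutrophil markers 1, *S100a8*, was higher at 24 h (21.4 ± 8.40 against 2.10 ± 0.152 CPM), whereas *Ly6g* had 3 counts in all libraries. Endothelial markers were lower with TME-CM at 24 h for 1 of 3 tested over H-CM (*Kdr*, 12.6 ± 6.41 against 40.0 ± 11.6 CPM, edgeR). Over unstimulated EGCs 2 of 3 were lower (*Kdr*, 38.0 ± 8.94 CPM there, and *Emcn*, edgeR). *Hbegf* was called lower in the second of these comparisons but not in the first. For H-CM over unstimulated EGCs at 24 h 0 of 3 endothelial markers were called (edgeR, 1 at an unadjusted p under 0.05), and *Hbegf* was called lower. The summed level of the endothelial list at 24 h was 12 to 27.3 CPM in TME-CM, 33.1 to 67.8 in H-CM and 41.9 to 63.6 in unstimulated EGCs. Most of it was *Kdr*. *Pecam1* was at 3.4 ± 2.28 CPM in TME-CM, 4.81 ± 1.79 in H-CM and 2.83 ± 0.975 in unstimulated EGCs at 24 h. *Cdh5*, *Tek* and *Vwf* did not pass 0.299 CPM as a group mean at that time. Of 8 tested neuronal markers 0 were called at 12 h or 24 h (edgeR; at most 1 at an unadjusted p under 0.05), and of 7 epithelial markers 1 could be tested and was not called (edgeR; under 0.05 before adjustment at 24 h), with a summed level of at most 6.92 CPM at 24 h. The part of these cells in the growth factor values was not tested.

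The genes whose levels ran most like a member over the 24 libraries of 12 h and 24 h were found by Pearson's r of log2 CPM among 10036 genes. *Ereg* ran most like *Nos2* (r = 0.939), *Cyp1b1* (0.935) and U90926 (0.934), and *Pdgfa* most like *Timp1* (0.855), *Saa1* (0.837) and *Rgs4* (0.835). The genes nearest to *Spp1* were *Ctsl* (0.859), *Tpi1* (0.826) and *P2rx4* (0.818), and those nearest to *Csf1* were *Tap2* (0.826), *Tnfrsf1b* (0.795) and *Snai1* (0.776). *Hbegf* ran most like *Wbscr17* (0.887), *Abcg2* (0.876) and *Mob3a* (0.826). Among the members themselves, r was 0.674 for *Pdgfa* and *Ereg*, 0.662 for *Spp1* and *Pdgfa*, 0.618 for *Spp1* and *Ereg* and −0.604 for *Spp1* and *Hbegf*. The points share libraries, stimulation groups and depth, so that each r describes these libraries and carries no p.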

How the data were processed

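QuantSeq 3′ mRNA libraries (36, from EGC cultures) were analysed from the raw counts per gene that the authors deposited. Per the study's methods, reads were checked with FastQC 0.11.7, cleaned with fastq-mcf and aligned to mm10 with HISAT2; multi-mapping reads were discarded, SAMtools 1.5 was used and HT-seq Count counted reads per gene. The gene annotation, the strand setting and any use of molecular identifiers are not given in the sources used here. Since a 3′ library gives about 1 tag per transcript, multi-mapping or overlapping 3′ ends can lower or move counts.

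Genes were filtered with filterByExpr (minimum count 10), scaled with TMM and tested with edgeR 4.0.16 (robust quasi-likelihood F test, R 4.3.3) in the 12 libraries of each time; time contrasts used 24 libraries, and the change from 6 h to 24 h 16. P-values were adjusted by Benjamini-Hochberg over all genes tested and called under 0.05; SE was the absolute log2 fold change over the square root of F. Levels used TMM over all 36 libraries. Alternatives were DESeq2 1.42.0 and its size factors, no filter, the 8 libraries compared, all 36 libraries, a replicate block and leaving out each library. Scripts were tested on simulated data. All 10 members and, of each pathway list, at most 4 genes called for TME-CM over H-CM at 24 h are named, and other genes where their choice is stated; likeness used genes of at least 5 CPM (prior count 2). Members and lists were chosen with earlier results of these data known. Positions are from GENCODE M21.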

Additional observations from a re-analysis of the deposited data

Results flagged for a closer look

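Among the 66 groups of 4 libraries checked with Dixon's test, 3 held a library far from the others of its group, and chance alone marks about 1 group in 20. *Csf3* in H-CM EGCs at 12 h was at 1.345 CPM in replicate 1 (5 counts) and at 0 in the other replicates. *Csf3* in unstimulated EGCs at 12 h was at 1.588 CPM in replicate 3 (6 counts) and at 0 in the others. With all other replicates at 0, any count in the remaining library gives Dixon's ratio of 1 and a flag. The rate of 1 in 20 therefore does not apply to these *Csf3* groups. *Hbegf* in H-CM EGCs at 12 h was at 132.3 CPM in replicate 4, where the others held 109.2 to 112.3 CPM.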

How the results depend on the processing

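Counts are of members called, *Csf3* included. The share of all genes called under each of these settings is not given. The counts therefore do not set the members apart from other genes. For TME-CM over H-CM at 6 h, 0 became 1 without the filter, 1 with DESeq2 and 2 with all 36 libraries in one model, which gave 5 for TME-CM over unstimulated EGCs at 6 h. For TME-CM over H-CM at 12 h, 4 became 2 with the 8 libraries compared, 0 with all 36 and 1 to 3 without 1 library. H-CM over unstimulated EGCs at 12 h went from 0 to 1 without the filter and with DESeq2. At 24 h all 36 libraries gave 1 for TME-CM over H-CM (3 before), 2 for TME-CM over unstimulated (4 before) and 0 for H-CM over unstimulated EGCs (1 before); the last was 2 without the filter, 2 with the replicate block and 1 to 2 without 1 library. The difference of 24 h from 12 h went from 0 to 1 without the filter, with DESeq2 and with the block in TME-CM, and with DESeq2 in H-CM EGCs. The cause was not tested.

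Signs turned for differences near 0. *Csf1* for H-CM over unstimulated EGCs at 24 h was −0.0057 with the block and −0.14 to 0.19 without 1 library. Other ranges without 1 library were, for H-CM over unstimulated EGCs, −0.70 to 0.10 for *Spp1* at 6 h, −0.17 to 0.36 for *Csf1* and −3.99 to 3.43 for *Csf3* at 12 h, and −0.32 to 0.23 for *Il34* and −0.31 to 0.52 for *Ereg* at 24 h; *Pdgfb* for TME-CM over H-CM at 24 h ranged from −0.65 to 0.22.

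Replicate numbers were not taken to pair libraries, since 5 of 36 same-number pairs, not all, correlated over 0.1; 16 of 36 libraries were closest to one of their own number, a hint from the data. The replicate block called *Spp1* for H-CM over unstimulated EGCs at 24 h (0.59, adjusted p = 0.031, edgeR) and changed no other call of a member between stimulations. Leaving out the 2 shallow libraries of 6 h was chosen after seeing the data. Depth limits *Csf2*, *Csf3*, *Il34*, *Pdgfb* and *Areg*, most of all at 6 h.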
